A study of Mus musculus with 20 samples.

Results

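The 10 genes described here are the acute-phase reactants Saa1, Saa2, Saa3, Saa4, Crp, Apcs, Orm1, Orm2, Hp and Lcn2, chosen by name as the rows of the deposited table whose Ensembl identifiers carry these symbols; all 10 were found among the 54532 genes of the table. The table held 20 mouse RNA sequencing libraries, all from C57BL/6 mice. Undamaged liver gave 2 libraries. Liver after PHx (partial hepatectomy, the surgical removal of 70% of the liver, after which the remnant grows back) gave 2 libraries at each of 6, 12, 24, 48 and 72 h and 7, 14 and 21 d. Per the labels the RNA came from hepatocytes isolated fresh from these livers, and none of the groups is labelled as sham operated. Hepatocyte organoids (Hep-Org), grown from hepatocytes in Matrigel and collected on passage, gave the last 2 libraries. Ages were not stated in these sources, and the labels do not say whether replicates were separate animals or cultures, so a p-value here reflects how far these libraries spread, which may be technical. For every PHx time, replicate 2 is treated as part of the later of the submissions the series describes, whereas both undamaged and both Hep-Org libraries belonged to the first. Values are FPKM, fragments per kilobase of exon scaled to sequencing depth, as deposited.

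Acute-phase reactants are plasma proteins that the liver makes in larger or smaller amounts after infection, injury or surgery. Interleukin-1 and tumour necrosis factor, acting through NF-kB, and cytokines of the interleukin-6 family, acting through STAT3, raise their transcription in hepatocytes together with C/EBP factors and glucocorticoids. The serum amyloid A genes Saa1 and Saa2 encode the inducible apolipoproteins of high-density lipoprotein, and Saa4 is regarded as the constitutive member. Saa3 is made in the liver and in macrophages, adipocytes and epithelia. Crp and Apcs encode the pentraxins C-reactive protein and serum amyloid P component, which bind bacterial and damaged cell surfaces. C-reactive protein is a major reactant in humans and a minor one in mice, in which serum amyloid P component takes that role. Orm1 and Orm2 encode alpha-1-acid glycoproteins, carriers of drugs and lipids. Hp encodes haptoglobin, which captures free haemoglobin, and Lcn2 encodes lipocalin-2, which sequesters iron-loading bacterial siderophores and is also stored in neutrophil granules.

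The members lie in few places of the mouse genome. In GENCODE M21 on GRCm38 the serum amyloid A genes form a cluster on chromosome 7, with Saa3 at chr7:46711998-46715700, Saa4 at chr7:46727998-46732603, Saa1 at chr7:46740497-46742980 and Saa2 at chr7:46751790-46754313. The pentraxin genes lie on chromosome 1, Crp at chr1:172698055-172833031 and Apcs at chr1:172893961-172895041, and the orosomucoid genes side by side on chromosome 4, Orm1 at chr4:63344560-63348163 and Orm2 at chr4:63362449-63365878. Hp lies at chr8:109575128-109579172 and Lcn2 at chr2:32384633-32388252. All 10 are annotated as protein coding. Of the windows of 50 bases in the transcripts of Saa1, 31.1% also occur in those of Saa2, and 20.4% of the windows of Orm1 also occur in Orm2. How the authors assigned reads that match both was not given in the sources used here, so the split within each pair is uncertain. The exons of Saa1 in this annotation cover 2478 bases, including a non-coding transcript, against 609 bases for its coding transcript, so the level per kilobase of Saa1, and likewise of Saa2 and Lcn2, depends on the annotation chosen.

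RefSeq promoter sequence (GRCm38.p6) was at hand for 8 of the 10 members. The stretch from base -220 to base -46, counted from the transcription start, is shown for 5 of them, 5′ to 3′, because in the values that follow Saa1 and Saa2 ran alongside each other while Saa3, Orm2 and Crp had time courses of their own. Capitals mark matches to the motifs described after the sequences.
Saa1 (chr7:46743026-46743200, minus strand): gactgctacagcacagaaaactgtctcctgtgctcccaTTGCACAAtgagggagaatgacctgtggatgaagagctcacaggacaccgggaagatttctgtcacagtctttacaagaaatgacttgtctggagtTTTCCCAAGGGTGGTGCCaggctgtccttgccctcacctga
Saa2 (chr7:46751613-46751787, plus strand): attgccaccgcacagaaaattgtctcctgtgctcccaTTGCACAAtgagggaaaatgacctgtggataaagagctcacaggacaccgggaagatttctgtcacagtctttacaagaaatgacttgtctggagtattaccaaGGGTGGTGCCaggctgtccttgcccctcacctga
Saa3 (chr7:46715722-46715896, minus strand): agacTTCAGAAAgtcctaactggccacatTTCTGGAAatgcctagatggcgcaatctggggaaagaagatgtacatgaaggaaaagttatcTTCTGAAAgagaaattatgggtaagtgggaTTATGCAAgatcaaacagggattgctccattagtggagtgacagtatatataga
Orm2 (chr4:63362229-63362403, plus strand): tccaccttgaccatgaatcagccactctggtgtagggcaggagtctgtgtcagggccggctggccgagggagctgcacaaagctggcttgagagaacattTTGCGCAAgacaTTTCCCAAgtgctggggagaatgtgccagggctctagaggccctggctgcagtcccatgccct
Crp (chr1:172697836-172698010, plus strand): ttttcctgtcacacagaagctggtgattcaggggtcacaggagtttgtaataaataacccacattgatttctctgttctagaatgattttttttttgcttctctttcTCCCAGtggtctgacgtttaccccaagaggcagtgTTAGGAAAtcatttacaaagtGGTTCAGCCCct

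Motifs were searched on both strands over the 250 bases before the start. The promoters of Saa1 and Saa2 were 94.8% identical (238 of 251 aligned columns). The C/EBP pattern TTNNGNAA was found in 7 of the 8 promoters, all but that of Apcs, and in 36.9% of all 32841 RefSeq promoters of the same length. Saa3 held 4 matches to it, Saa1, Saa4 and Orm2 held 2 each, and Saa2, Crp and Lcn2 held 1 each. The NF-kB pattern, GGG and CC with 5 bases of any kind between them, occurred in 5 promoters (Saa1, Saa2, Saa4, Crp and Lcn2) against 45.8% of all promoters. In Saa1 the C/EBP match at -86 to -79 directly adjoined the NF-kB match at -78 to -69, and in Crp a pair of NF-kB matches on opposite strands overlapped. The STAT pattern TTCNNNGAA was found in Apcs (7.02% of all promoters), the core CTGGGA of interleukin-6 response elements in Crp and Apcs (27.0%), and TATAAA in Crp and Orm2 (12.4%). A match describes letters and does not show that a factor binds.

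The depth recovered from the deposited values was 13.6 to 41.4 M reads (M, 1000000) per library, and summed FPKM ran from 167676 in Hep-Org replicate 2 to 988797 in undamaged replicate 2, so members were also viewed as a share of each library's sum. Xist, transcribed in female cells, lay between 13.6 and 23.7 FPKM in the 6 libraries taken at 48 h, 72 h and 7 d, and reached at most 0.137 in the other 12 liver libraries, while the Y-linked Ddx3y lay at 0 in those 6 and between 9.66 and 21.4 FPKM in the others. In the contrast of 48 h, 72 h or 7 d with any group of those 12 libraries, time and the sex of the mice therefore cannot be told apart. Between 48 h, 72 h and 7 d the sex read from these genes was the same. In Hep-Org replicates 1 and 2 Ddx3y read 9.90 and 0.00756 FPKM and Xist 0.00128 and 25.3. The organoid libraries thus came from cells of different sex, and differences between them cannot be told apart from sex. Hepatocyte markers (7 of 7 detected) summed to 15484 to 70457 FPKM in the liver libraries but to 3376 and 645 in Hep-Org, where cholangiocyte markers (5 of 5 detected) summed to 4444 and 2729, against at most 335 in liver.

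The 2 undamaged libraries differed in every member. Saa1 read 19.9 and 20927 FPKM in undamaged replicates 1 and 2, Saa2 5.91 and 24079, and Lcn2 2.16 and 3502. Replicate 1 was at or near the bottom of the series for these genes and replicate 2 at or near the top. Apcs read 114 and 5197, Orm2 16.6 and 4093, and Hp 2338 and 35737 in the same order. All 10 members were higher in replicate 2, by 2.52 to 11.8 on the log2(FPKM + 1) scale. The median absolute difference between these libraries was 6.68 over the members and 0.39 over the 13162 genes tested. Undamaged replicate 2 held the highest FPKM of all 20 libraries for 6 of the 10 members (Saa1, Saa2, Saa4, Crp, Apcs and Hp), where 9.56% of all tested genes were highest in it. As a share of summed FPKM, it was the highest for 2 members, where 0.334% of tested genes were. Counted that way the 10 members made up 0.840% of undamaged replicate 1 and 11.4% of replicate 2.

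The libraries taken at 7 d were split in the same way. Saa1 read 13.6 and 6138 FPKM, Saa2 5.73 and 5254, Lcn2 8.21 and 1214 and Orm2 55.1 and 2919.6 in replicates 1 and 2. Replicate 1 was below every library of 6 to 24 h for these 4 genes and replicate 2 was within or, for Orm2, above their range. Crp (197 and 189) and Saa3 (5.37 and 8.92) differed by less than 1 on the log2 scale. At 14 d it was replicate 1 that was higher, in 10 of 10 members, with Saa1 at 1163 and 227 and Apcs at 1923 and 259.7, and at 21 d replicate 1 was higher in 9 of 10, all but Crp. The median absolute difference between replicates was 2.60 at 7 d, 1.89 at 14 d and 1.71 at 21 d over the members, against 0.30, 0.24 and 0.25 over all tested genes. It was smallest at 24 h (0.26, against 0.24 over all genes) and 48 h (0.39, against 0.27).

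Markers of other cells differed between the same replicates. Of 8 lists of markers of other cells, 7 summed higher in undamaged replicate 2 (all but the erythroid one) and 8 in 7 d replicate 2, the libraries with the higher members. At 14 d 4 of the 8 and at 21 d 1 of the 8 summed higher in replicate 1, the library with the higher members there. Kupffer cell markers (10 of 10 detected) summed to 39.4 and 1032 FPKM in undamaged replicates 1 and 2 and to 239 and 1042 at 7 d. Neutrophil markers (11 of 11 detected) summed to 0.759 and 127 in undamaged liver and to 7.90 and 210.1 at 7 d, and none of them was at 0 in both undamaged libraries. Cholangiocyte markers read 8.06 and 335 in undamaged liver. At 21 d the order was the other way, with neutrophil sums of 3.28 and 16.4 in replicates 1 and 2, and at 6 h they were 834 and 114 while 9 of 10 members were higher in replicate 2. Hepatocyte markers summed to 57737 and 55483 in undamaged liver and to 64705 and 22669.6 at 7 d. The part of any of these markers in the member levels was not tested. In such bulk samples fewer cells of a type and less RNA per cell cannot be told apart.

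**Figure D1:**
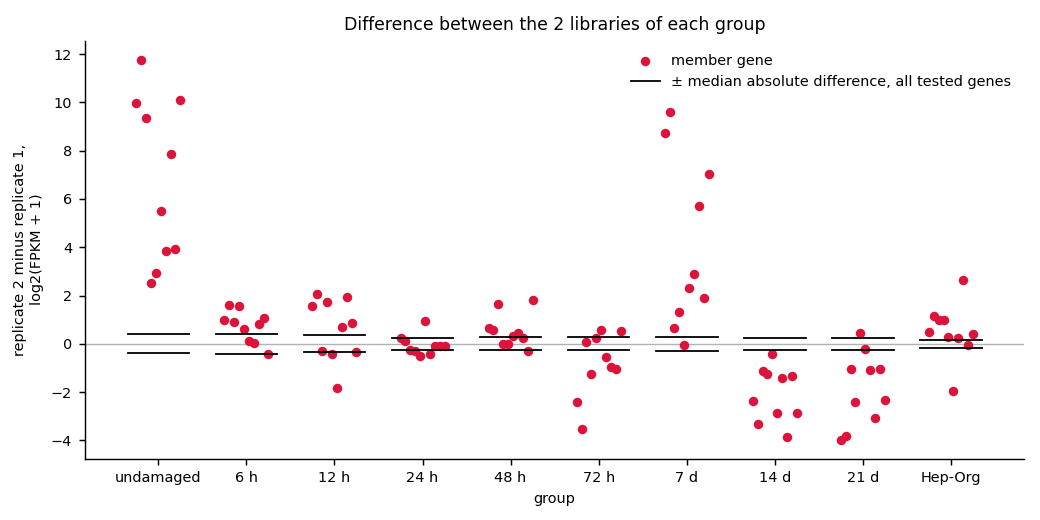
Difference between replicate 2 and replicate 1 (vertical axis, log2(FPKM + 1)) for each of the 10 members (points, ordered from Saa1 on the left to Lcn2 on the right within a group) in the 10 groups (horizontal axis), with black lines at plus and minus the median absolute difference over all tested genes. In undamaged liver all 10 points lie above 2.51, and the points are closest to the lines at 24 and 48 h.

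Over the first day after PHx, every library lay above all 4 libraries of 14 and 21 d for Saa1, Saa2 and Lcn2. Without overlap 3.81% of all tested genes were higher. For Hp, 6 h replicate 1 (8061) lay below 14 d replicate 1 (10015). Saa1 read 2606 and 5191 FPKM at 6 h, 3029 and 8941 at 12 h and 3520.4 and 4222 at 24 h, in replicates 1 and 2. It then read 7618 and 11902 at 48 h, 1439 and 268 at 72 h, 1163 and 227 at 14 d and 312 and 19.1 at 21 d. Apart from undamaged replicate 2, the 48 h libraries and 12 h replicate 2 were the highest for Saa1, and no library of 6 to 24 h overlapped with the 4 libraries of 14 and 21 d. Saa2, its neighbour and close copy, read 2731 and 8243 at 6 h, 3113 and 12882 at 12 h, 3479 and 3801 at 24 h and 7465 and 11072 at 48 h. It read 1147 and 99.9 at 72 h, 548 and 53.4 at 14 d and 101 and 6.20 at 21 d, so that it spanned a wider range than Saa1. The ratio of Saa2 to Saa1 was between 0.90 and 1.59 in the 8 libraries of 6 to 48 h and between 0.235 and 0.471 in the 4 of 14 and 21 d.

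Lcn2 read 1105 and 820.2 FPKM at 6 h, 1575 and 1241 at 12 h, 1899 and 1777 at 24 h and 2351 and 8202 at 48 h. It then read 262 and 378 at 72 h, 363 and 48.4 at 14 d and 46.1 and 8.39 at 21 d. Its 6 early libraries lay within a range of between 820.2 and 1899 (median 1408) and all above the 14 and 21 d libraries. The neutrophil calprotectin genes S100a8 and S100a9 read 295 and 29.0 and 427 and 55.2 FPKM at 6 h (replicates 1 and 2) and 22.1 and 7.99 and 34.6 and 10.9 at 24 h, so that both replicates were lower at 24 h for these genes and higher at 24 h for Lcn2. The neutrophil list summed to 22.6 to 834 in the libraries of 6 to 24 h and to 3.28 to 79.2 in those of 14 and 21 d, and its part in the level of Lcn2 in liver was not tested.

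Hp read 8061 and 16933 FPKM at 6 h, 11333 and 20513 at 12 h, 15144 and 14339 at 24 h and 26599 and 21466 at 48 h. It was never low in liver: the smallest value was 1813, in 21 d replicate 2, and Hp was the most abundant member per kilobase in 17 of the 18 liver libraries, all but 7 d replicate 2, in which Orm1 was. This order depends on the lengths: over the longest coding transcript of each gene, an alternative added after seeing the data, Hp was highest in 11, Saa1 in 4 and Saa2 in 3 of the 18. Hp read 6043 and 2966 at 72 h, 10015 and 3987 at 14 d and 3758 and 1813 at 21 d, so 14 d replicate 1 overlapped with the early libraries. Orm1 read 6218 and 6303 at 6 h, 6028 and 9683 at 12 h, 10521 and 7863 at 24 h and 15251 and 20930.2 at 48 h, then 3626 and 2458 at 72 h, 6608 and 2447 at 14 d and 2432 and 1143 at 21 d. It too overlapped between 6 to 24 h and 14 to 21 d, through 14 d replicate 1 alone. Erythroid markers (5 of 5 detected) summed to 82.6 to 7089 FPKM in the libraries of 6 to 24 h and to 36.8 to 168 in those of 14 and 21 d. Of the 5, 4 (all globin genes) were called higher over 6 to 24 h than at 14 and 21 d and 1 (Alas2) lower. In that comparison 3.28% of all tested genes were called higher and 4.25% lower. Hepatocyte markers summed to 15484 to 47909 over 6 to 24 h and to 33318 to 70457 at 14 and 21 d, with 1 of 7 called lower. The part of these markers in the early levels was not tested.

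On the log2(FPKM + 1) scale the 6 libraries of 6 to 24 h exceeded the 4 of 14 and 21 d by 6.12 in Saa2 (SE 2.18), 4.67 in Lcn2 (SE 1.70), 4.38 in Saa1 (SE 1.88), 1.76 in Hp (SE 0.71) and 1.55 in Orm1 (SE 0.74). A gene was called at a limma p-value, adjusted by Benjamini-Hochberg over all 13162 genes, under 0.05 with an absolute log2 difference of at least 1. By this rule 0 of 10 members were called, where 7.53% of all tested genes were called. Adjusted limma p-values were 0.0712 for Saa2, 0.0779 for Lcn2, 0.108 for Hp, 0.129 for Saa1 and 0.168 for Orm1. The unadjusted p was under 0.05 for 4 members (Saa1, Saa2, Hp and Lcn2), against 32.3% of all tested genes. With voom on recovered reads, 0 of 10 were called as well. The median difference was 1.66 over the members and 0.03 over all tested genes. The libraries did not overlap for 4 of 10 members (Saa1, Saa2, Saa3 and Lcn2, all higher early), where 3.81% of all genes were higher without overlap. After scaling every library to the same sum, which moved the median of all genes by -0.26, Saa3 overlapped and the other 3 did not.

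The spread in this fit was shared by all groups, the split undamaged and 7 d libraries included. When those 4 libraries were left out, an alternative chosen after seeing the data that lowers the estimated spread by construction, 6 of 10 members were called higher at 6 to 24 h than at 14 and 21 d (Saa1, Saa2, Saa3, Orm1, Hp and Lcn2), where 3.52% of all tested genes were called higher and 7.87% either way. Their differences were the same and adjusted limma p-values were then 0.00536 for Saa1, 0.00288 for Saa2, 0.00135 for Lcn2, 0.0202 for Hp, 0.0195 for Orm1 and 0.0130 for Saa3. Without undamaged replicate 1 alone 4 were called, without undamaged replicate 2 alone 5, and without either 7 d library 1 (Saa2). Within the first submission the differences were 2.33 for Saa1, 3.70 for Saa2, 3.51 for Lcn2 and 0.86 for Hp, and within the second 6.42, 8.54, 5.82 and 2.67. For Orm2 (-1.49 and 2.86) and Saa4 (-2.13 and 0.71) the direction differed between the submissions.

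**Figure D2:**
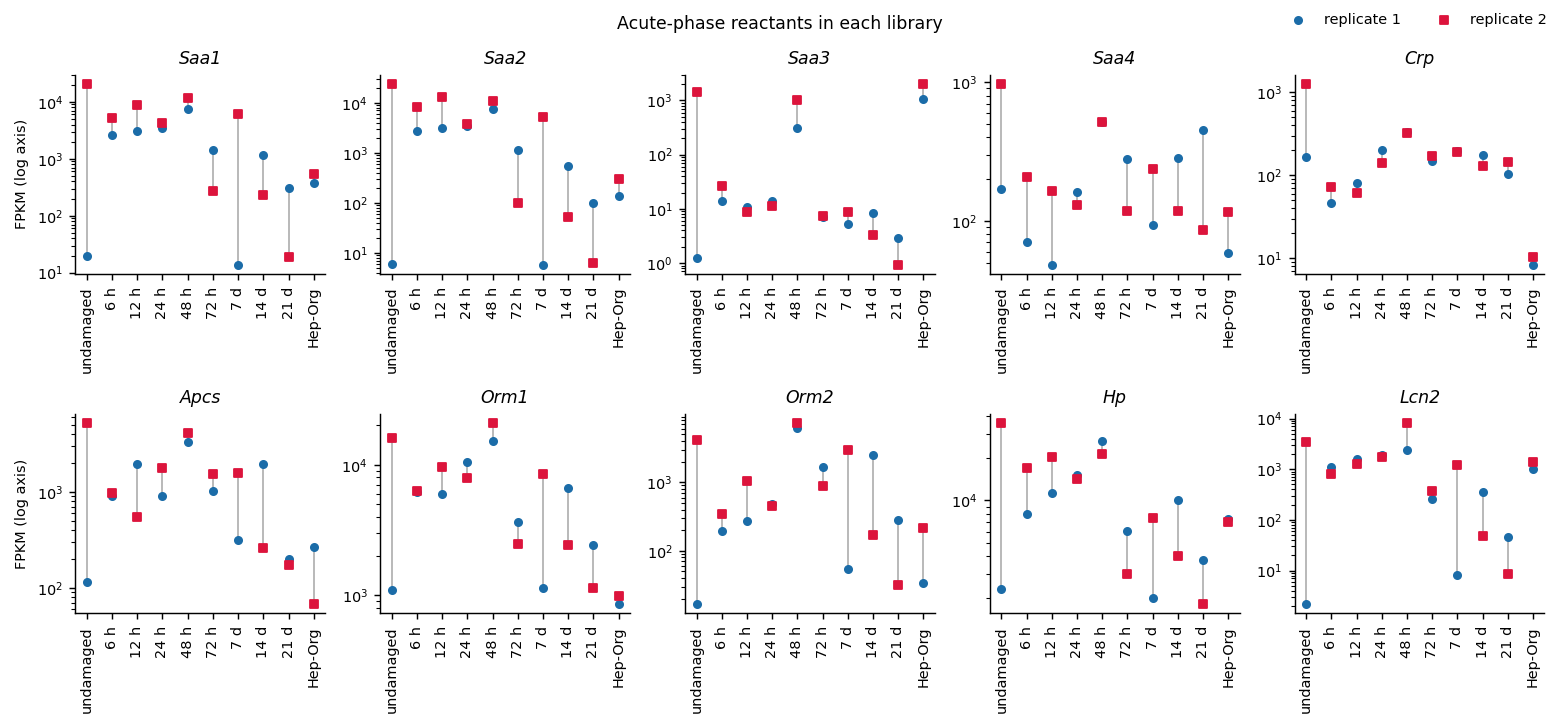
FPKM (vertical axes, log scale) of the 10 members in each of the 20 libraries, by group (horizontal axes), with replicate 1 as blue circles and replicate 2 as red squares joined by a grey line. For Saa1, Saa2 and Lcn2 all libraries from 6 to 48 h lie above those of 14 and 21 d. At 48 h both libraries do so for all 10 members. The undamaged replicates lie at opposite ends of most panels.

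At 48 h every member had the highest mean log2 level of the 8 PHx times. Saa3 read 316 and 1001 FPKM at 48 h in replicates 1 and 2. In the other 14 PHx libraries it stayed between 0.917 and 26.8, with 13.7 and 11.3 at 24 h and 7.17 and 7.52 at 72 h; its lowest value rested on 34 recovered reads. Only undamaged replicate 2 (1449.8) and the Hep-Org libraries were higher than 48 h replicate 2. The early libraries of Saa3 were thus far below its 48 h libraries, unlike those of Saa1 and Saa2, and its ratio to Saa1 was 0.000992 to 0.00539 at 6 to 24 h and 0.0415 and 0.0841 at 48 h. Elsewhere in liver the ratio ran from 0.00145 in 7 d replicate 2 to 0.395 in 7 d replicate 1. It was 0.0620 and 0.0693 in undamaged liver, so a ratio of this size was not particular to 48 h.

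Orm2 read 193 and 341 FPKM at 6 h, 275 and 1053 at 12 h and 489 and 456 at 24 h, and then 6251 and 7357 at 48 h and 1671 and 869.5 at 72 h. Its early libraries were below both 72 h libraries except for 12 h replicate 2. At 14 d it read 2470.4 and 169.8 and at 21 d 281 and 32.2. The ratio of Orm2 to Orm1 ran from 0.0310 to 0.109 in the 6 libraries of 6 to 24 h and from 0.351 to 0.461 in the 4 of 48 and 72 h. These ranges did not overlap, and the ratio was 0.0149 and 0.257 in undamaged liver and 0.0482 and 0.345 at 7 d. It was 0.374 and 0.0694 at 14 d and 0.115 and 0.0282 at 21 d, so 14 d replicate 1 lay within the range of 48 and 72 h. Time and sex cannot be told apart between 6 to 24 h and 48 to 72 h. A ratio shows unequal levels of the pair, subject to how shared reads were assigned.

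**Figure D3:**
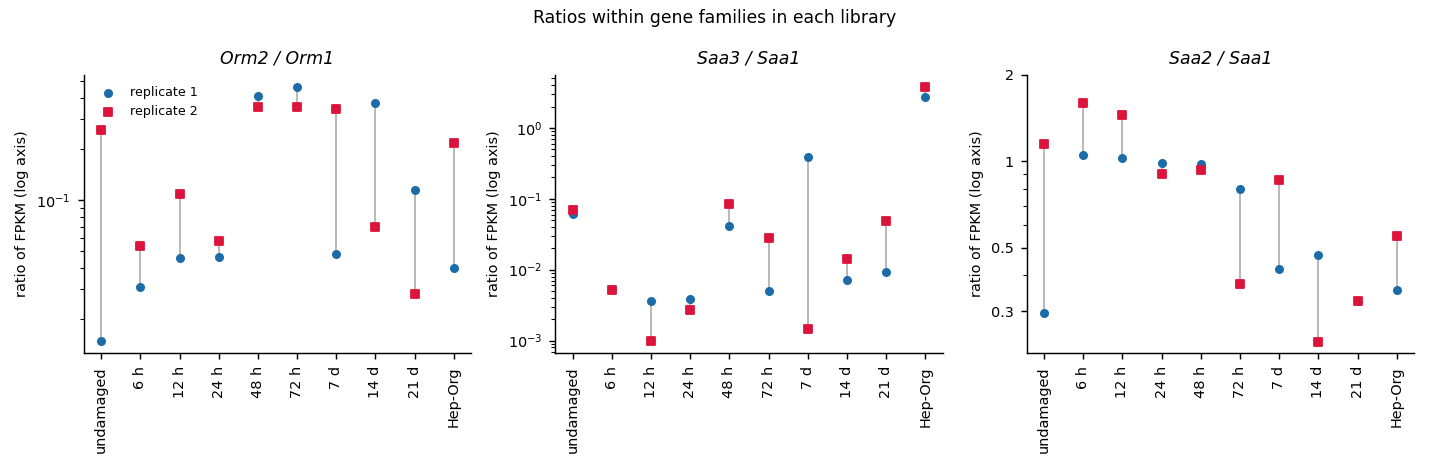
Ratios of FPKM (vertical axes, log scale) of Orm2 to Orm1, Saa3 to Saa1 and Saa2 to Saa1 in each library, by group, with replicate 1 as blue circles and replicate 2 as red squares. Orm2 over Orm1 lies below 0.11 at 6 to 24 h and above 0.35 at 48 and 72 h, and Saa3 over Saa1 is higher in Hep-Org than in any liver library.

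Apcs, the main pentraxin reactant of mice, read 3266 and 4099 FPKM at 48 h, the highest of the PHx libraries. It read 905 and 972 at 6 h, 1959 and 546 at 12 h, 907 and 1754 at 24 h and 1027 and 1518 at 72 h, and 201 and 174 at 21 d. At 14 d it read 1923 and 259.7, so that 14 d replicate 1 lay among the early libraries and the other late libraries lay below them. Crp, the other pentraxin, read 46.3 and 72.4 at 6 h, 80.3 and 60.6 at 12 h and 201 and 143 at 24 h, then 329.9 and 327 at 48 h and 148 and 173 at 72 h. It read 197 and 189 at 7 d, 177 and 131 at 14 d and 105 and 144 at 21 d. Crp was thus lowest of all PHx libraries in the 4 of 6 and 12 h, in which Saa1 and Saa2 lay above all libraries of 14 and 21 d. Saa4 read 519 and 514 at 48 h and between 48.0 and 454 in the other PHx libraries, with its lowest values in replicate 1 of 12 h and 6 h.

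Other cell markers also differed at 48 h. Kupffer cell markers summed to 488 and 447 FPKM there (replicates 1 and 2), to 129.5 to 339 in the libraries of 6 to 24 h and to 226 to 446 in those of 14 and 21 d. They were higher still at 72 h, with 785 and 503, where Saa3 read 7.17 and 7.52. Neutrophil markers summed to 103 and 254 at 48 h, above the 14 and 21 d libraries and within the range of 6 to 24 h. The part of these markers in the levels at 48 h was not tested.

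The 2 libraries of 48 h lay above all 4 of 14 and 21 d for 10 of 10 members, where 14.8% of all tested genes were higher without overlap. After scaling to the same sum, which moved the median of all genes by -0.28, the count was 9, without Saa4. The differences on the log2 scale were 7.08 in Saa3 (SE 1.71), 7.05 in Saa2 (SE 2.92), 6.37 in Lcn2 (SE 2.29), 5.56 in Saa1 (SE 2.52) and 4.76 in Orm2 (SE 2.02). They were 3.33 in Apcs, 2.79 in Orm1, 2.56 in Hp, 1.43 in Saa4 and 1.26 in Crp. With limma 0 of 10 members were called, where 0.539% of all tested genes were called, and the lowest adjusted limma p was 0.141, for Saa3. The unadjusted p was under 0.05 for 8 of 10 (all but Saa4 and Crp), against 11.4% of all tested genes, and voom on recovered reads called 0. The alternative that follows was chosen after seeing the data and lowers the estimated spread by construction. Without the undamaged and 7 d libraries 5 members were called higher (Saa1, Saa2, Saa3, Orm1 and Lcn2), where 0.555% of all tested genes were called higher and 1.11% either way, and without either undamaged library alone Saa3 was called.

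Against the 6 libraries of 6 to 24 h, an added comparison, the 48 h libraries lay above without overlap for 8 of 10 members, all but Saa1 and Saa2, where 4.7% of all tested genes did. Scaled to the same sum the number was again 8, with Saa1 in place of Lcn2. The differences were 5.29 in Saa3 (SE 1.61, limma adjusted p = 0.156), 4.07 in Orm2 (SE 1.91, adjusted p = 0.339), 2.14 in Saa4 and 1.89 in Crp (adjusted p = 0.149). In this comparison limma called 0 of 10 members, where 0.836% of all tested genes were called; the unadjusted p was under 0.05 for 3 (Crp, Saa3 and Saa4), against 15.1% of all tested genes, and voom called 0. Crp and Saa3 were called when the undamaged and 7 d libraries were left out (adjusted p = 0.0188 and 0.00111, where 1.09% of genes were called) and when either undamaged library was left out. Over the 8 PHx times the F test of limma called 0 of 10 members, where 9.51% of all tested genes were called; 0 members had an unadjusted p under 0.05, the lowest adjusted p was 0.213 (Saa3), and voom called 0. Leaving out the undamaged and 7 d libraries, the F test called 6 (Saa1, Saa2, Saa3, Crp, Orm1 and Lcn2), where 13.5% of all tested genes were called. As above, leaving out these libraries was chosen after seeing the data and lowers the estimated spread by construction.

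At single early times 0 of 10 members were called by limma against 14 and 21 d: at 6 h, where 15.9% of all tested genes were called, at 12 h, where 7.92% were, and at 24 h, where 0.038% were. The unadjusted p was under 0.05 for 0, 1 (Saa2) and 1 (Lcn2) of the members. At 72 h (0.349% of all genes called) and 7 d (0.456%) 0 members were called and 0 had an unadjusted p under 0.05. Voom called 0 members at each of these 5 times. Leaving out the undamaged and 7 d libraries, which lowers the estimated spread by construction, 5 members were called at 6 h (Saa1, Saa2, Saa3 and Lcn2 higher, Crp lower; 16.7% of all tested genes called) and 3 at 12 h (Saa1, Saa2 and Lcn2, all higher; 8.95%), while 0 were called at 24 and 72 h. The median difference of the members from 14 and 21 d was 1.44 for 6 h, 1.53 for 12 h, 1.80 for 24 h, 4.04 for 48 h, 1.31 for 72 h and 0.63 for 7 d, against medians of -0.03 to 0.02 over all tested genes. These comparisons share the libraries of 14 and 21 d.

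**Figure D4:**
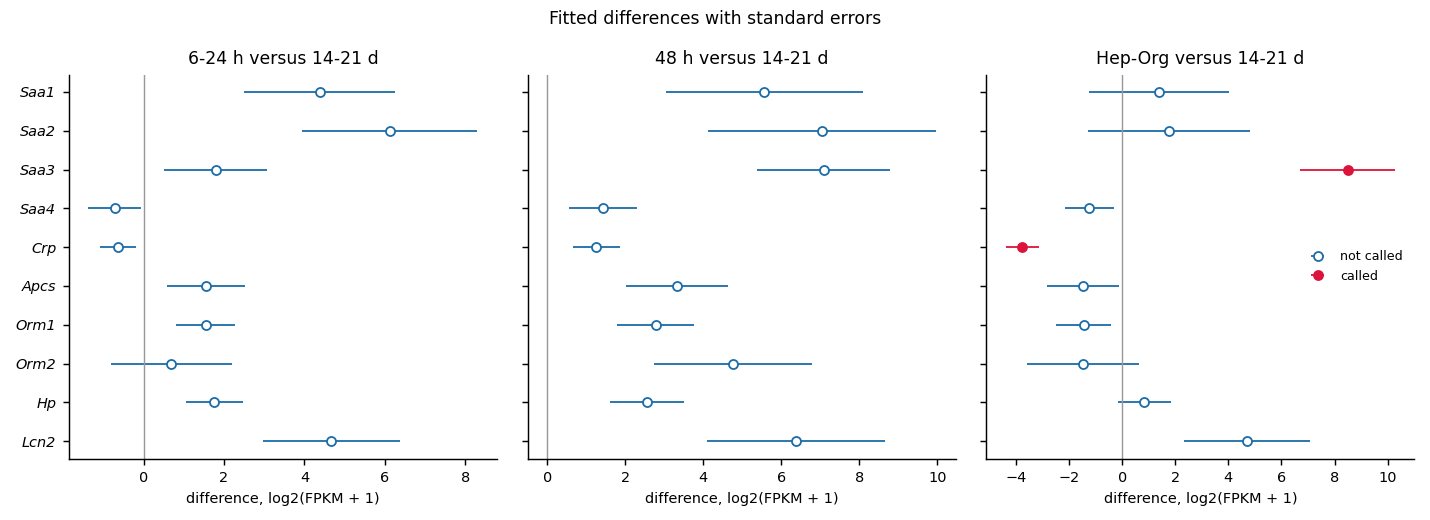
Fitted differences of the 10 members on the log2(FPKM + 1) scale (horizontal axes) with standard errors as bars, for 6 to 24 h, 48 h and Hep-Org against 14 and 21 d, with called members as filled red points. Crp (-3.76) and Saa3 (8.50) are called in Hep-Org, and at 48 h all 10 differences are above 0.

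Against the undamaged libraries 1 member was called at 6 to 24 h, Crp, where 3.73% of all tested genes were called and 2.86% were called lower. Crp was lower by a log2 difference of -2.37 (SE 0.59, limma adjusted p = 0.0423). The undamaged libraries read 166 and 1279 FPKM, and 5 of the 6 early libraries lay below both, with 24 h replicate 1 (201) above undamaged replicate 1. The call rested on single libraries: without undamaged replicate 2 the difference was -0.90 (adjusted p = 0.204), and the call was lost in 18 of the 20 fits that left out 1 library, being kept only without 6 h replicate 2 or undamaged replicate 1. It was lost with no filter on low values (adjusted p = 0.119) and after scaling to the same sum (adjusted p = 0.0516). At 48 and 72 h (0.805% of all genes called), 7 d (0.425%) and 14 and 21 d (0%) limma and voom each called 0 members against undamaged liver, and the unadjusted limma p was under 0.05 for 0, 0 and 1 (Crp). With a standard error of 2.49 for Saa1 and 2.88 for Saa2 at 6 to 24 h, a difference from undamaged liver was not detectable for these genes, and its direction turned with 1 library. Without undamaged replicate 1 it was -2.53 for Saa1 and -2.54 for Saa2, and without replicate 2 it was 7.43 and 9.23. Saa3 was called lower without undamaged replicate 1 (-6.69, limma adjusted p = 0.00216) and Lcn2 higher without replicate 2 (8.53, limma adjusted p = 0.0416).

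In Hep-Org the members parted. Saa3 read 1047 and 2048 FPKM in replicates 1 and 2, and Lcn2 1030.2 and 1384. Both lay above the 4 libraries of 14 and 21 d, which read between 0.917 and 8.33 (median 3.09) for Saa3 and between 8.39 and 363 (median 47.2) for Lcn2. The share of all tested genes without overlap in this comparison is not given here, while 11.4% were called higher and 13.4% lower. Crp read 8.27 and 10.3 in Hep-Org, below every liver library, the lowest of which held 46.3. Saa1 (382 and 545) and Saa2 (135 and 299.6) were within the range of 14 and 21 d. Orm1 read 855 and 999, just below the lowest liver library (1107), whereas Hp kept 7333 and 7048, which lay within the range of 14 and 21 d. The ratio of Saa3 to Saa1 in FPKM was 2.74 and 3.76 in Hep-Org and at most 0.395 in each of the 18 liver libraries. Over the longest coding transcripts it was 0.797 and 1.09 in Hep-Org and at most 0.115 in liver, so which of the pair was higher in the organoids depends on the lengths. The longest coding transcript has 2200 bases for Saa3 and 609 for Saa1. Saa3 also has a coding transcript of 555 bases, over which the ratio was not computed. Kupffer cell markers summed to 3.32 and 0.125 FPKM in Hep-Org, with Vsig4 and Timd4 at 0 in both. Apcs, at 266 and 67.3, and Orm2, at 34.3 and 218, differed several-fold between the organoid libraries. Saa4 read 58.6 and 116 there.

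Hep-Org versus 14 and 21 d called 2 members, where 24.8% of all tested genes were called: Saa3 was higher by 8.50 (SE 1.78, limma adjusted p = 0.00284; 11.4% of genes called higher) and Crp was lower, with a log2 difference of -3.76 (SE 0.62, limma adjusted p = 5.74e-04; 13.4% called lower). Lcn2, with a difference of 4.70 (SE 2.38, limma adjusted p = 0.144), was not called, and was called, of the alternatives run, only without the undamaged and 7 d libraries (with Crp, Saa3 and Orm1; 25.2% of all tested genes called) or without either undamaged library alone. Hep-Org versus undamaged liver called 1 member, Crp (-5.50, SE 0.69, limma adjusted p = 9.30e-05), where 23.5% of all tested genes were called and 13.2% were called lower. Saa3 differed from undamaged liver by 4.69 (SE 1.98, limma adjusted p = 0.0927), a value that moved with the split controls: it was 9.36 without undamaged replicate 2 and 0.01 without replicate 1. Scaling to the same sum moved the median of all genes, in differences of group means, by 0.97 against 14 and 21 d and by 1.37 against undamaged liver and turned 1495 higher and 1768 lower calls against 14 and 21 d into 6006 and 1059. On that scale Hp too was called against 14 and 21 d, Saa3 was called against undamaged liver, and Orm1 overlapped with 14 and 21 d. Hepatocyte markers were lower in Hep-Org (6 of 7 called), and neutrophil markers summed to 2.59 and 1.75 FPKM with 4 of 11 at 0 in both. Of the neutrophil markers 10 were measured and 0 were called against 14 and 21 d. S100a8 read 1.78 and 1.02 in Hep-Org and S100a9 0.263 and 0.0752. The part of neutrophil markers in the level of Lcn2 there was not tested.

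Other proteins of the acute phase were followed in lists of 24 positive and 12 negative reactants, all measured. Of the positive ones 3 were called higher and 0 lower at 6 h against 14 and 21 d (Itih3, Serpina3n and Mt2; median difference 1.20, against 0.01 over all genes, of which 8.33% were called higher and 7.54% lower). Over 6 to 24 h 6 were called higher (Serpina3n, Serpina3m, Mt1, Mt2, Agt and Hamp; 3.28% of all genes called higher), and at 48 h 0 were called, with a median of 1.68. Against undamaged liver 0 of the 24 were called higher over 6 to 24 h and 1 lower, where 3.73% of all genes were called. The median difference there was -0.09, against 0.03 over all genes. Serpina3n, a protease inhibitor, read 2298 and 2327 FPKM at 6 h, 1693 and 1485 at 48 h and 281 and 181 at 21 d, a difference of 3.05 at 6 h (limma adjusted p = 0.0414). Mt2, a metal-binding metallothionein, read 54.5 and 182 at 6 h and 0.277 and 0 at 21 d (limma adjusted p = 0.0219). Itih3, a hyaluronan-binding inhibitor chain, read 2009 and 1089 at 6 h and 288 and 269 at 21 d (difference 2.06, limma adjusted p = 0.0310). Cfb, complement factor B, did not pass the size limit at 6 h against 14 and 21 d (-0.83) and read 0.200 and 0.238 at 6 h. Cfb was the 1 positive reactant called lower over 6 to 24 h against undamaged liver (-1.82, limma adjusted p = 0.00613). Both undamaged libraries held more Cfb than any library of 6 to 24 h. In undamaged replicate 2 Serpina3n (4612 against 179.8 in replicate 1) stood apart as the members did.

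Of the 12 negative reactants, which fall in an acute phase, 1 was called lower and 0 higher at 6 h, at 12 h (4.16% of all genes called lower, 3.77% higher) and over 6 to 24 h (4.25% lower), and 0 at 48 h. It was Serpina6, corticosteroid-binding globulin, which read 17.8 and 24.8 FPKM at 6 h, 7.65 and 12.3 at 24 h and 73.3 and 64.2 at 14 d (difference -2.56 over 6 to 24 h, limma adjusted p = 0.00188). Serpina6 was also the 1 called lower over 6 to 24 h against undamaged liver, with 0 higher (2.86% of all genes called lower). Ttr, transthyretin, read 1463 and 3084 at 6 h and 4807 and 5283 at 21 d, and did not pass (-1.16, limma adjusted p = 0.231). Ahsg, fetuin-A, and Rbp4, the retinol carrier, did not pass either, with -0.87 and -0.93 at 6 h. In Hep-Org 10 of the 12 were called lower than at 14 and 21 d and 1 higher (Serpina7), while 7 of the 24 positive reactants were called lower and 3 higher (Il1rn, Cd14 and Cfb). Over all tested genes 13.4% were called lower and 11.4% higher in that comparison. The medians there were -4.34 for the negative and -1.36 for the positive list, against -0.02 over all genes.

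Among 13 inducing cytokines and receptors, 11 were measured, and at 6 h 2 were called higher (Il1r1 and Osmr) and 1 lower (Il1rap), where 8.33% of all tested genes were called higher and 7.54% lower. Il1r1, the signalling receptor of interleukin-1, read 91.8 and 102 FPKM at 6 h, 83.1 and 76.2 at 12 h, 11.9 and 9.82 at 24 h and 30.5 and 37.6 at 48 h, with a difference of 3.44 at 6 h (limma adjusted p = 0.00817). Osmr, the oncostatin M receptor, read 3.44 and 2.22 at 6 h and 0.222 and 0.221 at 21 d (limma adjusted p = 0.0130), and Il1rap, the co-receptor of interleukin-1, 5.43 and 7.93 and 15.2 and 16.9 (limma adjusted p = 0.0171). Lifr, the receptor of leukaemia inhibitory factor, was called lower over 6 to 24 h (-1.26, limma adjusted p = 0.0122). Against undamaged liver 0 of this list were called higher over 6 to 24 h and 2 lower (Il1rap and Lifr), where 2.86% of all genes were called lower. Both undamaged libraries held more Lifr (60.3 and 47.9) than any other library.

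Of 16 signal transducers and transcription factors, all measured, 5 were called higher at 6 h (Myd88, Socs3, Bcl3, Cebpb and Cebpd) and 1 lower (Nr3c1), against the same 8.33% and 7.54% of all tested genes. Socs3, the feedback inhibitor of STAT3 signalling, read 94.9 and 59.3 FPKM at 6 h, 11.9 and 29.2 at 12 h, 10.04 and 9.82 at 48 h and 3.11 and 1.58 at 21 d, and was higher at 6 h by 4.28 (limma adjusted p = 0.00119). Cebpd, a C/EBP factor, read 15.4 and 16.2 at 6 h and 5.08 and 3.74 at 48 h (difference at 6 h 2.56, limma adjusted p = 0.00261). Myd88, the adaptor of interleukin-1 and Toll-like receptors, was higher by 1.90 (limma adjusted p = 0.00116), and Nr3c1, the glucocorticoid receptor, was lower, with a difference of -1.41 (limma adjusted p = 0.00153). At 48 h 0 genes of this list and 0 of the cytokine and receptor list were called, where 0.539% of all tested genes were. Over 6 to 24 h against undamaged liver 1 transducer was called higher (Cebpd) and 1 lower (Nr3c1), where 3.73% of all genes were called. Of 13 receptors and clearance genes of the reactants, 11 were measured and 0 were called against 14 and 21 d at 6, 12, 24 or 48 h, where 15.9%, 7.92%, 0.038% and 0.539% of all tested genes were. Against undamaged liver 2 of them (Scarb1 and Lrp1) were called lower at 6 to 24 h, where 2.86% of all tested genes were. These lists were chosen for their known roles with earlier results of the series in view.

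**Figure D5:**
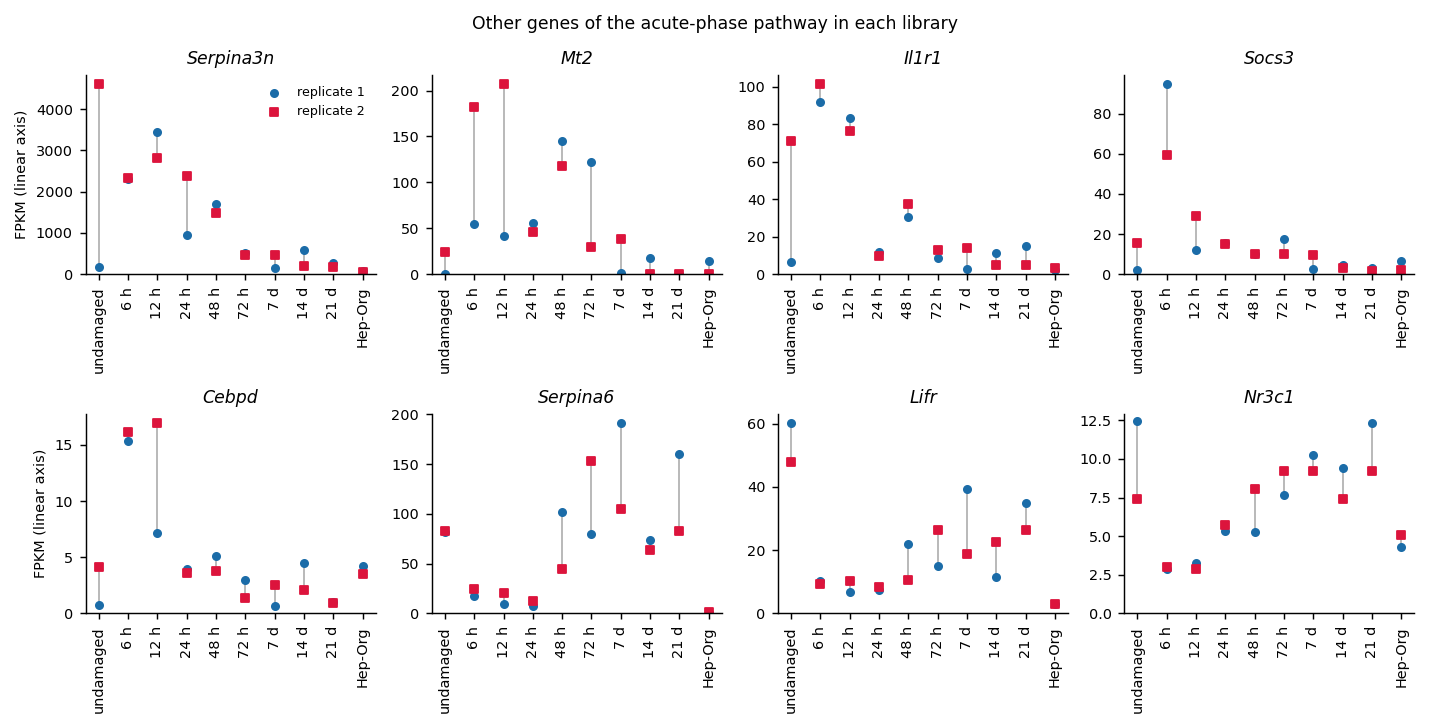
FPKM (vertical axes, linear scale) of 8 other genes of the pathway in each library, by group, with replicate 1 as blue circles and replicate 2 as red squares. Il1r1 and Cebpd are highest at 6 and 12 h and Socs3 at 6 h, and among liver libraries Serpina6 and Lifr are lowest at 6 to 24 h and Nr3c1 at 6 and 12 h.

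The genes most like 5 of the members over the 20 libraries were found by Pearson correlation of log2(FPKM + 1) among 9445 genes with a mean FPKM of at least 1. Saa1 was closest to Lrg1 (0.887), Ifitm2 (0.873) and Grn (0.842), and Hp to Ifitm2 (0.923), Lrg1 (0.891) and Grn (0.842). Crp was closest to Serping1 (0.941), Edem1 (0.936) and C4bp (0.934), which include a complement inhibitor (Serping1) and the C4b-binding protein (C4bp). Saa3 was closest to Icam1 (0.899), Susd6 (0.878) and Ikbke (0.855), of which Icam1 encodes an endothelial and epithelial adhesion molecule and Ikbke a kinase of the NF-kB and interferon pathways. Lcn2 was closest to Ly6d (0.841), Sh3bgrl3 (0.823) and Golt1b (0.817). The points share libraries, among them undamaged replicate 2 and the Hep-Org pair, and these correlations are descriptions.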

How the data were processed

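RNA sequencing of 20 mouse libraries was deposited by the authors as FPKM values per gene. The submitters' processing notes name HISAT2 2.0.5 and the mm10 build. Which counting tool, annotation and strand setting were used was not stated there. Symbols were matched for 54409 of 54532 identifiers in GENCODE M21. FPKM multiplied by exon length came out whole in 97.9% to 98.7% of values of at most 20 reads (tolerance 0.05 reads), and summed to 13.6 to 41.4 M reads per library (M, 1000000). These sums were 0.477 to 1.94 times the library size that the FPKM steps imply, and any scaling between libraries was not stated. The column of undamaged replicate 1, spelled unlike its sample, was matched by elimination.

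The 13162 genes reaching an FPKM of 1 in 2 or more libraries were fitted as log2(FPKM + 1) with limma 3.58.1 in R 4.3.3, over all 20 libraries, with 1 mean per group and a submission term (12 libraries in the first, 8 in the second), moderated variances with trend and robust options, and Benjamini-Hochberg adjustment over all tested genes. Such differences understate those of low genes. A gene was called where the adjusted p lay under 0.05 and the log2 difference was 1 or more in size. Alternatives were another pseudocount (0.1), no filter, scaling to equal sums, no submission term, voom on recovered reads, 14 d or 21 d alone as reference, leaving out libraries, and the longest coding transcript as length. The procedure was tested on simulated data. The members and lists were chosen with earlier results of these data known. By rule, all members were named, up to 4 genes from each of 5 pathway lists (the largest absolute moderated t at 6 h versus 14 and 21 d among genes with a mean FPKM of at least 1), and for 5 members the 3 genes most correlated with each; other genes were named after their values were seen. Promoters came from RefSeq (GRCm38.p6). Python 3.11.15 with pandas 2.3.3 wrote summaries.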

Additional observations from a re-analysis of the deposited data

How the results depend on the processing

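All 15 comparisons kept their number of called members with a pseudocount of 0.1 and with voom on recovered reads, and those with 14 and 21 d did so with 14 d or 21 d alone as reference. The fit with no replicate block (without the submission term) also called the same number in all 15 comparisons, for example 0 at 6 to 24 h against 14 and 21 d, 1 at 6 to 24 h against undamaged liver and 2 for Hep-Org against 14 and 21 d; over all genes it called 738 in place of 491 at 6 to 24 h against undamaged liver, 293 in place of 106 at 48 and 72 h against undamaged liver, 166 in place of 110 at 48 h against 6 to 24 h, 12 in place of 5 at 24 h against 14 and 21 d and 7 in place of 0 at 14 and 21 d against undamaged liver. Replicate numbers did not pair the libraries: over 28 pairs of times the replicate differences correlated by -0.38 to 0.47 (median -0.12), and by over 0.1 in 4. With no filter, 0 in place of 1 member was called at 6 to 24 h against undamaged liver. Scaling to equal sums called 0 there, 1 (Crp) at 6 h against 14 and 21 d, 1 (Crp) over the time course and 2 (Crp, Saa3) for Hep-Org against undamaged liver.

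Leaving out the undamaged and 7 d libraries, added after seeing the data, called 5 members at 6 h, 3 at 12 h, 6 over 6 to 24 h and 5 at 48 h against 14 and 21 d, 2 at 48 h against 6 to 24 h, 4 for Hep-Org against 14 and 21 d and 6 over the time course. Leaving out 1 library at a time, where a lone replicate is assumed to vary like the other groups, gave 0 to 2 members at 6 h, 0 to 5 at 6 to 24 h and 0 to 1 at 48 h against 14 and 21 d, 0 to 2 at 48 h against 6 to 24 h, and 2 to 3 for Hep-Org. Against undamaged liver it gave 0 to 2 at 6 to 24 h, at 48 and 72 h, at 7 d and at 14 and 21 d, and 1 to 4 for Hep-Org, and over the time course 0 to 2. The cause of these changes was not tested, except that fewer libraries enter each fit. The lowest Saa3 value rested on 34 recovered reads. How far depth or shared reads limit the calls was not tested. Scaling and the spread between the 2 libraries of a group were varied only through the alternatives given here. These do not measure how far either limits the calls.

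Counts over all genes moved by more than 1.5 times under other settings as well. With no filter 550 genes were called at 12 h (1043 with it), 30 at 48 h (71), 36 at 7 d (60) and 640 at 6 to 24 h (991) against 14 and 21 d. Against undamaged liver it called 159 (491) at 6 to 24 h, 45 (106) at 48 and 72 h and 26 (56) at 7 d, and it called 48 (110) at 48 h against 6 to 24 h and 543 (1252) over the time course. Scaling to equal sums called 669 at 12 h and 0 at 24 h (5) against 14 and 21 d, 91 at 6 to 24 h and 57 at 48 and 72 h against undamaged liver, 42 at 48 h against 6 to 24 h, 718 over the time course, and 8296 (3095) and 7065 (3263) for Hep-Org against undamaged liver and 14 and 21 d. Voom called 0 at 24 h, 36 at 48 h and 1504 at 6 to 24 h against 14 and 21 d, and 63 at 48 and 72 h and 12 at 7 d against undamaged liver, and a pseudocount of 0.1 called 0 at 24 h and 1517 at 6 to 24 h against 14 and 21 d and 35 at 7 d against undamaged liver. Lengths of the longest coding transcript, added after seeing the data, moved the number of liver libraries with Hp highest from 17 to 11 and the ratio of Saa3 to Saa1 in Hep-Org from 2.74 and 3.76 to 0.797 and 1.09.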
